A study of Mus musculus with 12 samples.

Results

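The expression of 7 complement genes was examined in bone marrow-derived macrophages, which are macrophages grown in culture from mouse bone marrow. The genes were taken by symbol from the 38739 gene symbols of the deposited expression table, and all 7 were found: C1qa, C1qb, C1qc, C3ar1, C5ar1, Serping1 and Cd55. The study compared wild-type (WT) C57BL/6J mice with cGAS-/- mice on the same background. The cGAS-/- mice carried a whole-body deletion of the gene for cyclic GMP-AMP synthase, a cytosolic DNA sensor, and the methods describe the animals as young adult males. Macrophages of each genotype were left in medium (UT) or given lipopolysaccharide (LPS), the cell wall endotoxin of Gram-negative bacteria, which made 4 groups of 3 samples (cGAS-/- LPS, cGAS-/- UT, WT LPS and WT UT). The labels give LPS from Escherichia coli 026:B6 at 100 ng/mL for 1 h, whereas the methods of the study state a higher dose and a longer exposure, so the dose and time behind the LPS groups are uncertain. One account of the experiment describes the 3 samples of a group as technical replicates. The p-values below therefore measure the spread between these samples, which may be technical.

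Complement is a protein cascade that tags microbes and dying cells for uptake. C1q, the recognition molecule that starts the classical pathway, is assembled from 3 chains encoded by C1qa, C1qb and C1qc, and tissue macrophages are a main source of it. C3ar1 and C5ar1 encode the G protein-coupled receptors for the anaphylatoxins C3a and C5a. Serping1 encodes C1 inhibitor, which inactivates the proteases bound to C1q, and Cd55 encodes decay-accelerating factor, a membrane protein that dissociates the C3 convertases.

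On the GRCm39 build, the C1q chain genes lie side by side on the minus strand of chromosome 4. C1qb (ENSMUSG00000036905) spans chr4:136606009-136613511, C1qc (ENSMUSG00000036896) chr4:136616466-136620376 and C1qa (ENSMUSG00000036887) chr4:136623223-136626161. C3ar1 (ENSMUSG00000040552) lies at chr6:122823393-122833122, C5ar1 (ENSMUSG00000049130) at chr7:15980668-15993465, Serping1 (ENSMUSG00000023224) at chr2:84595705-84620873 and Cd55 (ENSMUSG00000026399) at chr1:130366469-130390926, all on the minus strand.

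Promoter windows of 300 bases, from 250 bases before to 50 after the start of the gene, were matched by symbol in RefSeq for 5 of the 7 genes on GRCm38.p6, and were not found there for C1qa and Serping1. The windows of C1qb and C1qc are shown because these neighbouring genes moved most closely together, and that of Cd55 because it moved the other way after LPS. All are minus-strand genes, printed 5′ to 3′ in the direction of transcription, at chr4:136886151-136886450 (C1qb), chr4:136892865-136893164 (C1qc) and chr1:130462695-130462994 (Cd55). Capitals mark matches to 5 searched motifs on either strand: the MAF core TGCTGA, the PU box GAGGAA, the AP-1 site TGANTCA, the interferon response element and the NF-kB site.
C1qb: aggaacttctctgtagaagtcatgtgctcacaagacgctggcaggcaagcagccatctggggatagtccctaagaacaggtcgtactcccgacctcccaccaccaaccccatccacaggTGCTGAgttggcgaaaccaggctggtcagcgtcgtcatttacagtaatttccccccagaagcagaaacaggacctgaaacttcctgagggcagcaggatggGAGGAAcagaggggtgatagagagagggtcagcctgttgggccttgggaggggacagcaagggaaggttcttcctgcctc
C1qc: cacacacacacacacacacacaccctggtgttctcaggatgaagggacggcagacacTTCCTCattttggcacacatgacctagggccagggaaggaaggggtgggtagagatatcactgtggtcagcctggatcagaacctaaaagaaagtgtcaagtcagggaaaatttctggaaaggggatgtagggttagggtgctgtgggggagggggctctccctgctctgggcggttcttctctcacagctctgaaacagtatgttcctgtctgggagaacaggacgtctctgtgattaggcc
Cd55: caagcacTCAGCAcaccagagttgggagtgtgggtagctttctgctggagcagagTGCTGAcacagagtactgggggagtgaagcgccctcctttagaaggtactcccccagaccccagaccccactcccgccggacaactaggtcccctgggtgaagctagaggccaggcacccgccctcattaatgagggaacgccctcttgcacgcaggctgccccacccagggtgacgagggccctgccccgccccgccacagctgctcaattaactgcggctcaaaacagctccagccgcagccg
The C1qb window held TGCTGA from position -131 and GAGGAA from position -30 relative to the start. The C1qc window held only TTCCTC, the PU box read on the opposite strand, from position -193. The Cd55 window held the MAF core in both orientations, TCAGCA from position -243 and TGCTGA from position -195. None of these matches overlapped. The MAF core was present in 19.5% and the PU box in 28.3% of all 32851 promoter windows of this length, so such matches are common, and they describe letters and not bound sites.

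Expression was read as TPM, an abundance scaled for transcript length and library size. The read depth is unknown, so no counting interval can be given. Cgas, the deleted gene, was at 1.19 to 3.25 TPM in the 6 WT samples and at 0.0703 to 0.291 TPM in the 6 cGAS-/- samples. The third WT LPS sample stood apart. Its values summed to 709802, against 447189 to 503156 in the other 11, protein-coding genes held 18.5% of that sum against 54.4% and 49.9% in the other WT LPS samples, and the ferritin pseudogene Fth-ps3 alone held 31.7%. Values without this sample are given beside the fold changes of the 7 genes that rest on the WT LPS group. Of 17 macrophage marker genes, 13 were in the table and 12 of them were at 1 TPM or more in every sample, with sums of 22391 to 38120 TPM. Markers of T and NK cells, mast cells and basophils, and dendritic cells summed to at most 1.02, 1.28 and 2.23 TPM, with Fcer1a at 0 throughout. The erythroid sum reached 37.4 TPM, and the neutrophil sum ranged from 68.1 to 382 TPM.

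**Figure D1:**
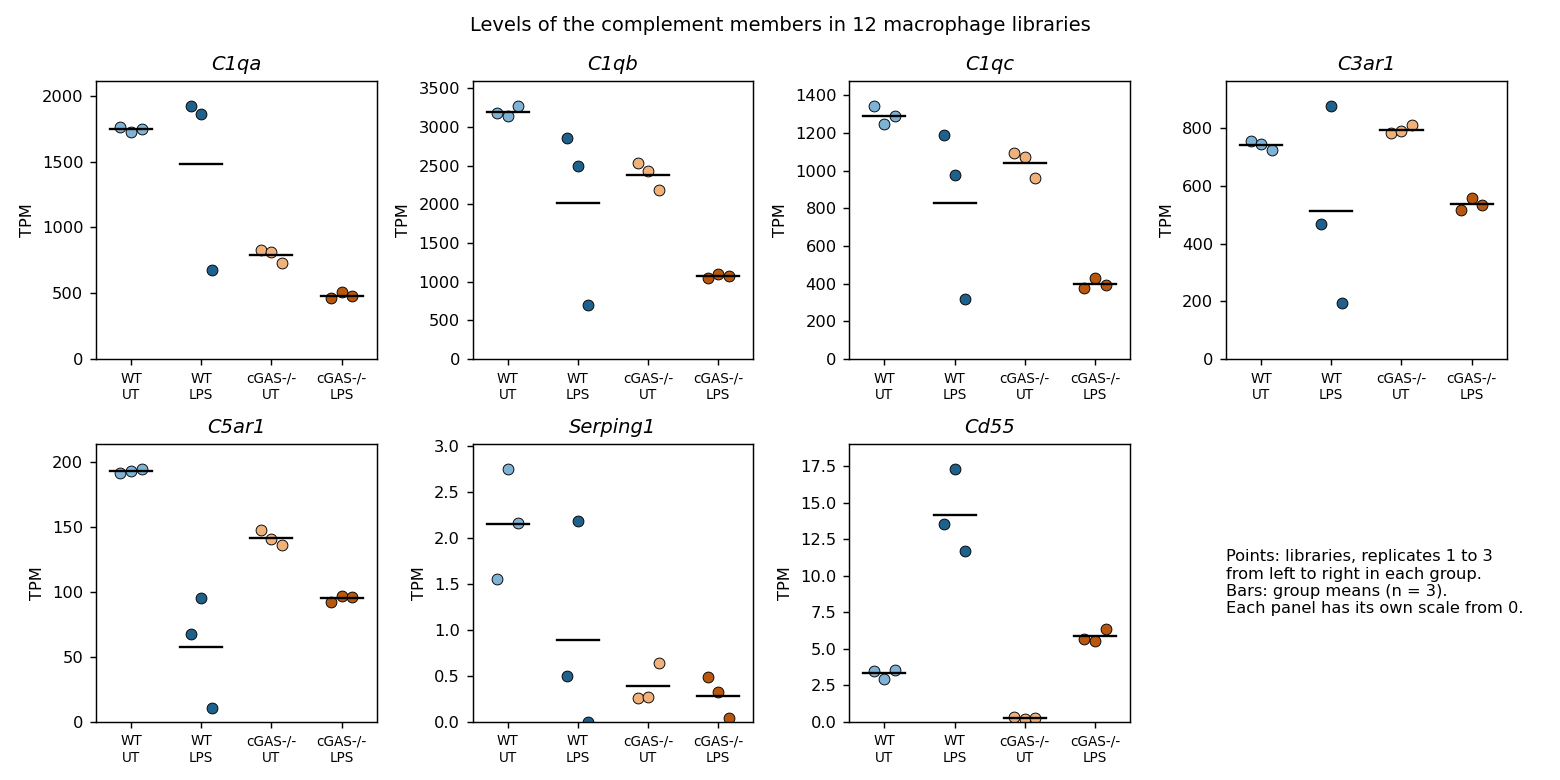
Level of each of the 7 complement genes in TPM by group, each panel on its own linear scale from 0, with 1 point per sample and bars for the group means (n = 3). The C1qa points of cGAS-/- samples lie below those of WT samples of the same treatment, Cd55 is higher after LPS in both genotypes, and the WT LPS samples of the C1q chains and receptors are widely spread.

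In untreated macrophages, the C1q chains were among the abundant transcripts, with C1qb at 3198 ± 65.2, C1qa at 1748 ± 17.4 and C1qc at 1292 ± 47.0 TPM in WT (mean ± SD, n = 3). C3ar1 followed at 740 ± 15.9 and C5ar1 at 193 ± 1.72 TPM, whereas Cd55 at 3.32 ± 0.338 and Serping1 at 2.16 ± 0.600 TPM were low. No neighbours in this order had overlapping WT UT samples, although the number of listed transcripts averaged for a gene affects its level. In cGAS-/- UT the order differed. C1qb led at 2386 ± 179 TPM and C1qc followed at 1042 ± 72.5 TPM. C3ar1 at 794 ± 14.8 and C1qa at 791 ± 52.3 TPM overlapped there. C5ar1 was at 142 ± 5.78, Serping1 at 0.388 ± 0.220 and Cd55 at 0.249 ± 0.0798 TPM, and the last 2 overlapped.

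In untreated macrophages C1qa, C1qb and Cd55 transcript was lower in cGAS-/- than in WT samples, and so was Serping1, which passed the filter on low values only through WT samples, where it is high. These 4 of the 7 genes were lower at a Benjamini-Hochberg adjusted p under 0.05 in limma, fitted to log2(TPM + 1) of all 11887 genes that passed a filter on low values, and none was higher. Leaving aside Serping1, 3 of 6 were lower. Across all tested genes 10.9% were called in this comparison, with 7.65% lower and 3.27% higher. With an added threshold of 2 on the absolute log2 change, 0 of the 7 genes and 0.488% of all genes remained. With a pseudocount of 0.1 in place of 1, Cd55 at -3.31 and Serping1 at -2.26 were beyond 2. The samples of the genotypes did not overlap for any of the 7 genes, nor for 30.5% of all tested genes. They were below WT for 6, where 18.4% of all genes were, and above it for C3ar1, where 12.1% of all genes were. The median log2 fold change was -0.45 over the 7 genes and -0.04 over all tested genes.

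Of the C1q chains, C1qa differed by the largest amount. It was at 1764, 1729 and 1751 TPM in the WT UT samples and at 831, 810 and 732 TPM in the cGAS-/- UT samples. Every cGAS-/- sample thus lay well below every WT sample, and the fitted log2 fold change was -1.15 (SE 0.0925, limma adjusted p = 1.87e-05). C1qb was at 3186, 3140 and 3268 TPM in WT and at 2536, 2435 and 2188 TPM in cGAS-/- samples, a smaller gap of -0.42 on the log2 scale (SE 0.106, limma adjusted p = 0.0272). C1qc was at 1341, 1247 and 1287 TPM in WT and at 1095, 1071 and 959 TPM in cGAS-/- samples. Its samples were also separate, but its log2 fold change of -0.31 did not pass the test (95% interval -0.55 to -0.07, limma adjusted p = 0.101).

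The anaphylatoxin receptors did not pass the test in untreated cells. C3ar1 was at 754, 744 and 723 TPM in WT and at 784, 788 and 811 TPM in cGAS-/- samples, with a log2 fold change of 0.10 (95% interval -0.12 to 0.32, limma adjusted p = 0.611). C5ar1 was at 192, 194 and 195 TPM in WT and at 148, 141 and 136 TPM in cGAS-/- samples, with a log2 fold change of -0.45 (95% interval -0.76 to -0.13, limma adjusted p = 0.0790). C5ar1 passed the threshold under 11 of 28 alternative settings and C1qc under 6. Both passed without the third WT LPS sample, which left their fold changes as they were and gave adjusted p of 6.31e-04 and 0.0175.

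Of the regulators in untreated cells, Cd55 was lower in cGAS-/- macrophages. It was at 3.47, 2.94 and 3.57 TPM in WT UT and at 0.339, 0.187 and 0.222 TPM in cGAS-/- UT samples, a 13.3-fold difference between the group means in TPM. On the log2(TPM + 1) scale, which understates the change of low genes, its fold change was -1.79 (SE 0.0926, limma adjusted p = 8.27e-07), and it stayed past the threshold under all 28 alternative settings. Serping1 was at 1.55, 2.75 and 2.16 TPM in WT UT and at 0.254, 0.269 and 0.642 TPM in cGAS-/- UT samples, with a log2 fold change of -1.18 (SE 0.195, limma adjusted p = 0.00263). The call of Serping1 is partly set by the filter and is not read as support. With no filter on low values its adjusted p was 0.0282. With equal weights for all samples, the adjusted p was 0.175 for C1qa, 1 for C1qb and 0.195 for Serping1, which ended those calls, and the call of C1qb was lost under 9 of 28 alternative settings.

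Summed levels of marker genes of other cells differed between the genotypes in the same samples. The summed level of 7 B cell markers was 108 to 134 TPM in WT UT and 20.0 to 28.6 TPM in cGAS-/- UT samples. The 8 stromal markers summed to 10.7 to 13.8 TPM in WT UT and 3.03 to 5.02 TPM in cGAS-/- UT samples. The 10 neutrophil markers summed to 154 to 225 TPM in WT UT and 71.7 to 141 TPM in cGAS-/- UT samples. Of these markers, S100a8 and S100a9 overlapped between the genotypes. Csf3r went the other way, at 11.6 to 14.6 TPM in WT UT and 14.8 to 19.3 TPM in cGAS-/- UT samples. Their part in the differences of the complement genes was not tested. In bulk RNA, fewer cells of a type and less RNA per cell cannot be told apart.

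The ratios between the C1q chains within a sample do not change when all values of a sample are scaled by 1 factor. C1qb over C1qa was 1.81, 1.82 and 1.87 in WT UT and 3.05, 3.01 and 2.99 in cGAS-/- UT samples. After LPS it was 1.49, 1.34 and 1.04 in WT and 2.28, 2.15 and 2.25 in cGAS-/- samples. The ratio was thus higher in every cGAS-/- sample than in every WT sample of the same treatment, and lower in every LPS sample than in every UT sample of the same genotype. C1qc over C1qa showed the same order, at 0.721 to 0.760 in WT UT, 0.470 to 0.620 in WT LPS, 1.31 to 1.32 in cGAS-/- UT and 0.818 to 0.841 in cGAS-/- LPS samples. C1qc over C1qb varied less, between 0.360 and 0.450 over all 12 samples. It was 0.394 to 0.421 in WT UT and 0.432 to 0.440 in cGAS-/- UT samples, which did not overlap, and 0.360 to 0.391 in cGAS-/- LPS samples, below the untreated ones of that genotype. The WT LPS samples, at 0.391 to 0.450, overlapped the WT UT samples. The third WT LPS sample, in which each chain was lowest for its group, lay outside the other WT LPS samples in all 3 ratios, and without it the C1qb over C1qa and C1qc over C1qa orders were the same. These ratios are a description and were not tested.

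**Figure D2:**
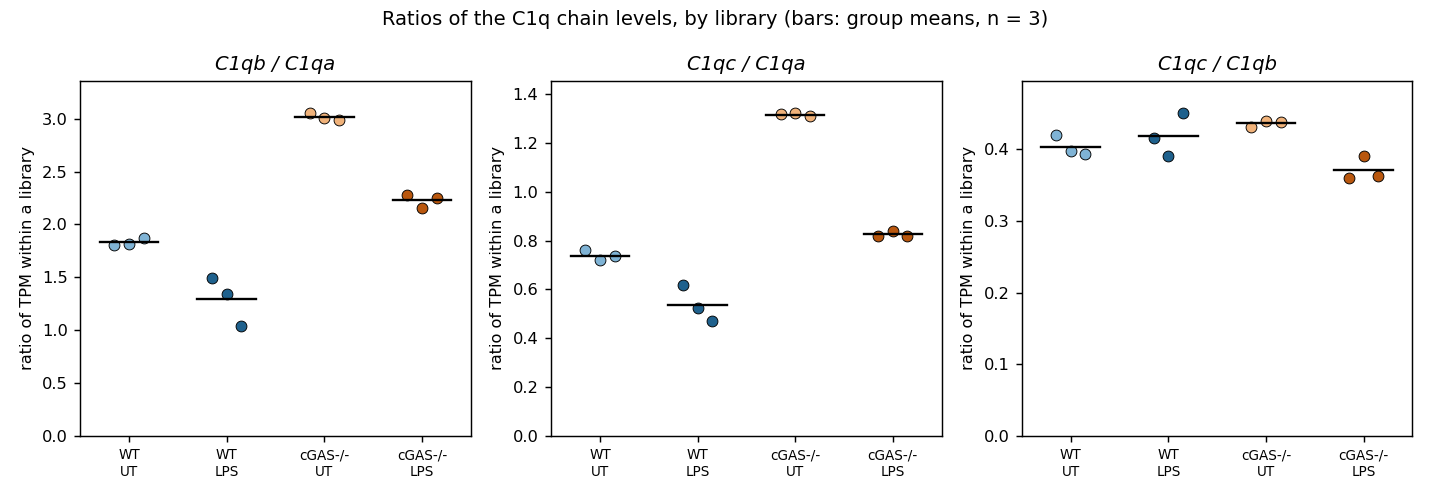
Ratio of C1qb to C1qa, C1qc to C1qa and C1qc to C1qb within each sample, by group, with 1 point per sample and bars for the group means (n = 3). The first 2 ratios were higher in cGAS-/- than in WT samples of the same treatment and lower after LPS, and C1qc to C1qb ranged from 0.360 to 0.450, with cGAS-/- UT above WT UT and cGAS-/- LPS below cGAS-/- UT.

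In cGAS-/- macrophages, LPS lowered the transcripts of all 3 C1q chains and of both anaphylatoxin receptors and raised Cd55. By limma, 1 of the 7 genes was higher and 5 were lower, while Serping1 did not pass. This was the comparison with the most calls, in which 47.3% of all tested genes were called, 12.9% higher and 34.3% lower. The split of calls depends on scaling, with 1535 genes higher and 4083 lower here but 2519 higher and 2305 lower after trimmed-mean (TMM) scaling. The median log2 fold change was -0.57 over the 7 genes and -0.20 over all tested genes. The B cell marker sum was 20.0 to 28.6 TPM in cGAS-/- UT and 3.08 to 8.89 TPM in cGAS-/- LPS samples, and its part in these changes was not tested.

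C1qc fell most among the C1q chains, from 1095, 1071 and 959 TPM in cGAS-/- UT to 379, 428 and 391 TPM in cGAS-/- LPS samples, by 2.61-fold in group means (log2 fold change -1.38, SE 0.0980, limma adjusted p = 6.51e-07). C1qb fell from 2536, 2435 and 2188 to 1051, 1095 and 1075 TPM (-1.15, SE 0.0967, limma adjusted p = 2.61e-06). C1qa fell from 831, 810 and 732 to 461, 509 and 478 TPM (-0.71, SE 0.0842, limma adjusted p = 4.18e-05). The LPS samples of each chain lay below its UT samples with no overlap, as did those of both receptors. Over all tested genes 55.7% had separate samples, 40.2% below and 15.5% above. C1qc stayed past the threshold under all 28 alternative settings, whereas equal weights gave an adjusted p of 0.222 for C1qa and 0.0977 for C1qb. No other of the 28 settings ended the call of C1qa or C1qb, and fits to only the 6 samples compared kept both. Under TMM scaling the fall of C1qa was smaller, at -0.39, and it stayed past the threshold.

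Both receptors fell by similar amounts on the log2 scale. C3ar1 went from 784, 788 and 811 TPM to 517, 556 and 533 TPM (-0.57, SE 0.0913, limma adjusted p = 4.23e-04). C5ar1 went from 148, 141 and 136 TPM to 92.6, 96.6 and 96.2 TPM (-0.57, SE 0.130, limma adjusted p = 0.00427). Equal weights ended both calls, with adjusted p of 0.461 and 0.644, and TMM scaling ended that of C5ar1 (-0.25, adjusted p = 0.0669). The call of C5ar1 was also lost with no filter on low values (limma adjusted p = 0.0661). No other of the 28 alternative settings ended either call, and fits to only the 6 samples compared kept both. C3ar1 was also at -0.25 under TMM scaling, still past the threshold.

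The regulators behaved differently from each other. Cd55 rose from 0.339, 0.187 and 0.222 TPM to 5.69, 5.51 and 6.38 TPM, 23.5-fold in group means from a level near 0, with a log2 fold change of 2.46 (SE 0.0842, limma adjusted p = 1.91e-09). It was the only one of the 7 with a log2 fold change beyond 2 in this comparison, as 3.74% of all tested genes had, and it was called under all 28 alternative settings. Serping1 stayed low at 0.486, 0.325 and 0.0403 TPM after LPS, overlapping the untreated samples (-0.12, 95% interval -0.51 to 0.28, limma adjusted p = 0.622).

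In WT macrophages Cd55 rose and C5ar1 fell after LPS, and the other 5 genes did not pass the test. The calls were thus 2 of 7, where 8.94% of all tested genes were called, 1.94% higher and 7% lower. C5ar1 alone was also beyond 2 on the log2 scale, as were 3.49% of all genes, but not without the third WT LPS sample, where it was at -1.26. The LPS and UT samples did not overlap for 4 of the 7 genes and for 38.2% of all genes. They were below for C1qb, C1qc and C5ar1, as for 32.9% of all genes, and above for Cd55, as for 5.31%. The median log2 fold change was -0.85 over the 7 genes and -0.46 over all tested genes. The B cell marker sum was 108 to 134 TPM in WT UT and 30.7 to 45.0 TPM in WT LPS samples, and its part in these changes was not tested.

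Cd55 rose from 3.47, 2.94 and 3.57 TPM in WT UT to 13.5, 17.3 and 11.7 TPM in WT LPS samples, by 4.27-fold in group means (log2 fold change 1.80, SE 0.301, limma adjusted p = 0.00447). Every LPS sample lay above every untreated sample, including the third. The adjusted p was 0.142 without the first and 0.0535 without the second WT LPS sample. C5ar1 fell from 192, 194 and 195 TPM to 67.8, 95.4 and 10.3 TPM (-2.21, SE 0.467, limma adjusted p = 0.0154). All 3 LPS samples lay below the untreated ones, the third by far the lowest, and without the first the adjusted p was 0.0657. Without the third, C5ar1 was still called lower, at -1.26 (adjusted p = 5.61e-04), and Cd55 higher, at 1.92 (adjusted p = 0.00121).

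The C1q chains followed the sample that stood apart. C1qa was at 1921, 1862 and 675 TPM in WT LPS, with the first 2 above and the third far below the untreated samples (-0.38, 95% interval -1.05 to 0.28, limma adjusted p = 0.493). Without the third sample the log2 fold change of C1qa was 0.11, and under TMM scaling it was 0.38. C1qb was at 2863, 2494 and 704 TPM and C1qc at 1191, 975 and 317 TPM in WT LPS, below every untreated sample for both chains. Their log2 fold changes of -0.90 and -0.85 did not pass the test (limma adjusted p = 0.138 and 0.166), and without the third sample both were -0.26. Under TMM scaling they were -0.14 and -0.09. With scaling to protein-coding genes both were called lower (-0.94 and -0.89, limma adjusted p = 0.0107 and 0.0250), where the median of all genes was -0.64.

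C3ar1 was at 467, 875 and 193 TPM in WT LPS, on both sides of the untreated samples (-0.79, 95% interval -1.51 to -0.06, limma adjusted p = 0.169). Serping1 was at 0.493, 2.19 and 0 TPM, listed at 0 in the third sample (-0.89, 95% interval -2.29 to 0.51, limma adjusted p = 0.437). Neither gene had separate groups. Without the third sample C3ar1 was at -0.21 and Serping1 at -0.51, and without the second C3ar1 passed the threshold at -1.30 (adjusted p = 0.0373). C3ar1 also passed with scaling to protein-coding genes (-0.83, limma adjusted p = 0.0291).

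After LPS, cGAS-/- and WT macrophages could not be separated by the test for any of the 7 genes. The counts were 0 of 7 called by limma, where 0.353% of all tested genes were called, 0.185% higher and 0.168% lower, and 0.219% with a log2 fold change beyond 2. The samples did not overlap for 2 of the 7 genes, C1qa and Cd55, beside 17.7% of all genes. Both were below WT, as were 5.17% of all genes, while 12.6% were above. The median log2 fold change was -0.67 over the 7 genes and 0.20 over all tested genes. The B cell marker sum was 30.7 to 45.0 TPM in WT LPS and 3.08 to 8.89 TPM in cGAS-/- LPS samples, and the stromal sum was 5.95 to 19.2 and 3.41 to 4.47 TPM. Their part in the values below was not tested.

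C1qa was at 461, 509 and 478 TPM in cGAS-/- LPS samples and at 1921, 1862 and 675 TPM in WT LPS samples (-1.47, 95% interval -2.13 to -0.81, limma adjusted p = 0.0949). Cd55 was at 5.69, 5.51 and 6.38 TPM in cGAS-/- LPS samples and at 13.5, 17.3 and 11.7 TPM in WT LPS samples (-1.13, 95% interval -1.79 to -0.47, limma adjusted p = 0.200). Equal weights gave adjusted p of 0.0486 for C1qa and 0.0117 for Cd55, and TMM scaling gave 0.00573 and 0.0407. Without the third WT LPS sample, C1qa (-1.97, adjusted p = 6.65e-04), C1qb (-1.31, adjusted p = 0.00293) and C1qc (-1.43, adjusted p = 0.00596) were called lower in cGAS-/- cells, and Cd55 was at -1.25 (adjusted p = 0.0627).

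With all samples, C1qb at 1051, 1095 and 1075 TPM and C1qc at 379, 428 and 391 TPM in cGAS-/- LPS lay between the second and the third of the WT LPS samples. Their log2 fold changes were -0.67 and -0.84 (limma adjusted p = 0.576 and 0.455). They were -0.30 and -0.48 without the first WT LPS sample and -0.40 and -0.62 without the second, and did not pass in either case. C5ar1 was at 92.6, 96.6 and 96.2 TPM in cGAS-/- LPS and C3ar1 at 517, 556 and 533 TPM. Both receptors overlapped the WT LPS range, with log2 fold changes of 1.19 for C5ar1 (95% interval 0.17 to 2.22, limma adjusted p = 0.421) and 0.32 for C3ar1 (-0.40 to 1.04, limma adjusted p = 0.885). The direction of C3ar1 turned under TMM scaling to -0.08 and without the third WT LPS sample to -0.26. C5ar1 was at 0.24 without that sample and at 1.79 without the second. Serping1 had a log2 fold change of -0.41 (95% interval -1.80 to 0.99, limma adjusted p = 0.977), which was -0.78 without the third WT LPS sample.

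**Figure D3:**
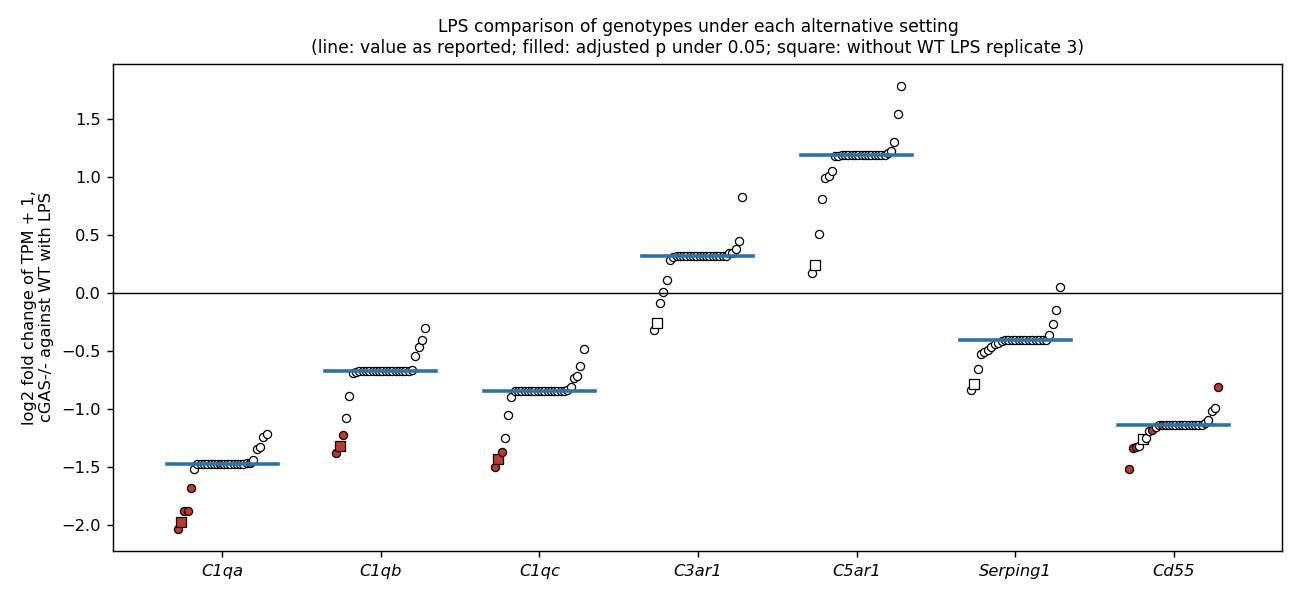
Log2 fold change of TPM + 1 between cGAS-/- and WT macrophages after LPS for each of the 7 genes. The line is the reported value, each point an alternative setting, a filled point one with an adjusted p under 0.05, and the square the fit without the third WT LPS sample, where C1qa, C1qb and C1qc were called lower.

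**Figure D4:**
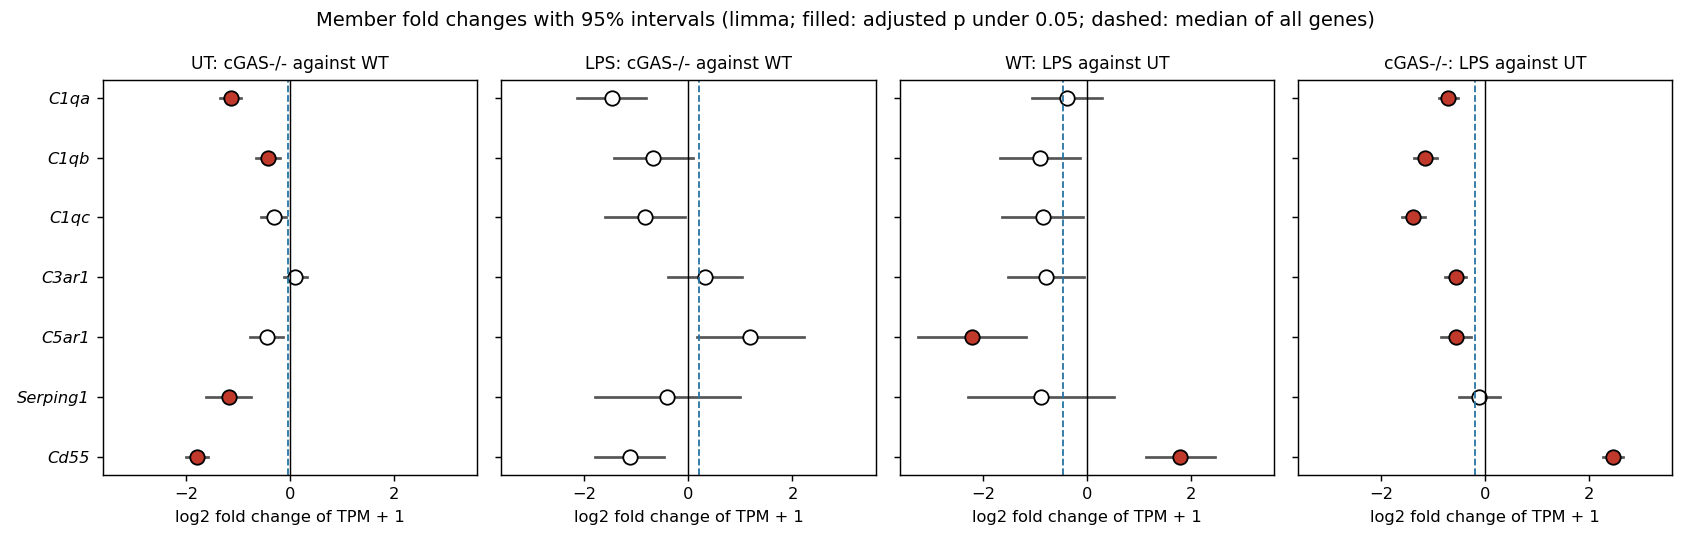
Log2 fold change of TPM + 1 of each of the 7 genes with its 95% interval in the 4 comparisons, filled where the adjusted p was under 0.05, with the median of all tested genes as a dashed line. Intervals are widest where WT LPS samples enter, and Cd55 lies below 0 between genotypes and above 0 after LPS.

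The LPS responses of the genotypes were compared directly by an interaction term. Of the 7 genes 0 were called by limma, and 0.395% of all tested genes were called, 0.32% higher, 0.0757% lower and 0.328% with a difference beyond 2. The LPS effect in cGAS-/- minus that in WT was 1.64 for C5ar1 (95% interval 0.57 to 2.71, limma adjusted p = 0.243) and 0.66 for Cd55 (-0.03 to 1.35, limma adjusted p = 0.503). For the C1q chains it was -0.33 for C1qa, -0.25 for C1qb and -0.53 for C1qc, with limma adjusted p of 0.798, 0.905 and 0.669. C3ar1 at 0.22 and Serping1 at 0.77 did not pass either (limma adjusted p = 0.917 and 0.764). Without the third WT LPS sample Serping1 was at 0.40 and Cd55 at 0.54. In this fit a difference in LPS response between the genotypes was not shown for any of the 7 genes, and the values moved with the WT LPS samples used. Without the first of these the interaction was -0.07 for C1qa, 0.12 for C1qb and -0.17 for C1qc, none of them called. Without the third WT LPS sample it passed the threshold for C1qb (-0.89, adjusted p = 0.0337) and C1qc (-1.12, adjusted p = 0.0328), and it was -0.82 for C1qa (adjusted p = 0.0570), 0.69 for C5ar1 (adjusted p = 0.0882) and -0.36 for C3ar1 (adjusted p = 0.756). With weights per sample C1qc was called as well (-1.08, adjusted p = 0.0416).

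A list of 57 complement genes gives the rest of the pathway. It had 40 genes in the table, and 22 of them, including the 7 above, passed the filter on low values. None of its central and alternative pathway genes was among those tested. In untreated cells 0 of the 22 were higher and 9 lower in cGAS-/- macrophages by limma, beside 3.27% and 7.65% of all tested genes. The median log2 fold change of the list was -0.43, beside -0.04 over all genes. Leaving aside Serping1, 8 of 21 were lower and the median was -0.42. With equal weights 2 of the list were called. Regulators that were lower included Cd55 and Cd59a, which blocks the membrane attack complex (-0.94, adjusted p = 1.48e-04). Fcna, a ficolin that starts the lectin pathway, was also lower (-1.004, adjusted p = 2.73e-04), as were the second C5a receptor C5ar2 (-0.80, adjusted p = 6.27e-04) and the chaperone calreticulin, encoded by Calr (-0.45, adjusted p = 0.0114).

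After LPS, 4 of the 22 listed genes were higher and 14 lower in cGAS-/- cells, beside 12.9% and 34.3% of all tested genes. The median log2 fold change of the list was -0.57, beside -0.20 over all genes. The 18 calls became 9 with equal weights and 2 with the added threshold of 2. Among the 15 listed genes other than the 7, C1ra, a protease of the C1 complex, rose from 2.30 to 3.79 TPM in the untreated to 16.04 to 18.2 TPM in the LPS samples (2.18, adjusted p = 5.17e-07). Itgam, the alpha chain of complement receptor CR3, rose (1.66, adjusted p = 6.78e-08). Cd93 (-1.80, adjusted p = 1.59e-08), the scavenger receptor Lrp1 (-1.79, adjusted p = 7.59e-07) and Itgax (-1.46, adjusted p = 2.51e-05) fell. In WT cells 1 listed gene was higher, Cd55, and 7 were lower, 6 of them receptors, beside 1.94% and 7% of all tested genes. These 8 calls became 0 without the first WT LPS sample, 11 (3 higher and 8 lower) without the third, 4 with only the 6 samples compared and 14 with scaling to protein-coding genes. Calls over all 11887 genes were 231 higher and 832 lower in the main fit, and 76 and 133 without the first sample. They were 398 and 886 without the third, 158 and 396 with the 6 samples, and 228 and 1485 of 8023 with protein-coding scaling. The median of the list in WT cells was -0.86 in the main fit, beside -0.46 over all genes. Besides C5ar1, the receptors that fell in WT cells were Lrp1 (-2.53), Itgax (-2.17), C1qbp (-2.07), C5ar2 (-1.75) and Cd93 (-1.73), with adjusted p between 0.00474 and 0.0426. Without the third WT LPS sample they were at -1.67, -1.95, -1.32, -1.44 and -1.42 in the same order, still called. C1ra at 2.45 (adjusted p = 0.00309) and Itgam at 1.25 (adjusted p = 0.00490) were then called higher in WT cells as well. Between the genotypes after LPS and in the interaction 0 of the 22 were called. Without the third WT LPS sample 3 were called between the genotypes and 2 in the interaction. With weights per sample these counts were 7 and 3, with equal weights 4 were called between the genotypes, and with TMM without the third sample 6 were called in each.

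**Figure D5:**
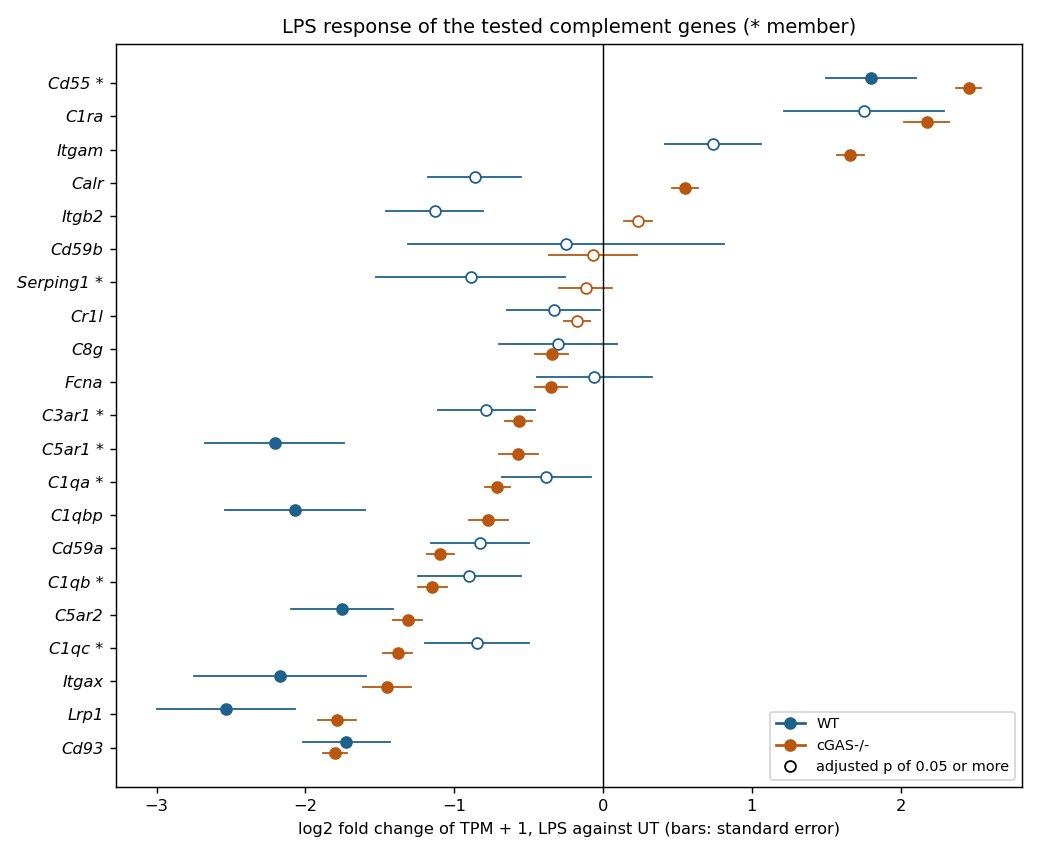
Log2 fold change of TPM + 1 after LPS, with its standard error, for tested genes of the complement list in WT and cGAS-/- macrophages, ordered by the value in cGAS-/- cells. Filled points passed an adjusted p under 0.05, asterisks mark the 7 genes described above, and with all samples Cd55 was the only listed gene called higher in both genotypes.

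Over the 12 samples, log2(TPM + 1) of C1qb and C1qc had a Pearson r of 0.992, and C1qa had 0.821 with C1qb and 0.818 with C1qc. C3ar1 and C5ar1 had 0.926. All these values share the 4 groups and the sample that stood apart, so they are descriptions and carry no p. Of 8023 tested protein-coding genes, those most like the mean of the C1q chains were Fcgr3 (r = 0.984), Ctsk (0.981) and Fabp5 (0.958). Fcgr3 encodes a low-affinity IgG receptor, and its group means were 155 TPM in WT UT, 102 in WT LPS, 113 in cGAS-/- UT and 48.2 in cGAS-/- LPS. Those most like C3ar1 were Gpr65 (0.993), Septin8 (0.989) and Dnajc7 (0.989), and those most like C5ar1 were Smap2, Dstn and Prkaca (0.995, 0.995 and 0.994).

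The genes most like Cd55 were the monocyte-attracting chemokines Ccl2 (r = 0.976) and Ccl7 (0.958), followed by the Fc receptor gene Fcgr4 (0.957). Ccl2 had group means of 23.7 TPM in WT UT, 483 in WT LPS, 2.08 in cGAS-/- UT and 143 in cGAS-/- LPS, the same order as Cd55. Those most like Serping1 were Tpx2 (0.947), Cnbd2 (0.938) and Eps8 (0.934), over a low range in every group.

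Sequence shared with other genes was found for some of the 7 genes. Of the longest Cd55 transcript, 19.2% matched Gm16083, a noncoding gene on the opposite strand listed at 0 to 0.232 TPM, and the strand setting of the quantification is not given in the sources used here. The corresponding shares were 12.5% of C1qc with Gm69251 and 6.57% of C1qb with Mettl6, the closest of 189 genes that matched part of it, and 1.82% of C3ar1 with Gm63229. No match was found for C1qa, C5ar1 or Serping1.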

How the data were processed

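RNA was sequenced from 12 samples (4 groups of 3) with a stranded mRNA kit. The submitters' processing notes name fastp, STAR, kallisto and GRCm39, and the study's methods name limma and edgeR. The deposited values, made by the authors, are read here as TPM averaged over the listed transcripts of a symbol, which is inferred from the values. The labels' extraction text names neutrophils, and the methods macrophages.

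The 7 genes and the gene lists were chosen with earlier results of these data known. Genes at 1 or more in at least 3 of 12 samples, after rescaling to a common total, were kept (11887, with all 7 genes among them). limma 3.58.1 (R 4.3.3) was fitted to log2(TPM + 1) with a mean per group, a weight per group and a trended prior. The weight was 0.0973 for WT LPS and 1.82 to 2.67 for the others, since WT LPS varied more. P-values were Benjamini-Hochberg adjusted over all tested genes in each of 5 comparisons and called under 0.05. No columns of the table were left unmapped. The fit was also run on simulated data, but the outcome is not given here and lends the fit no support. The genes named were the 7, Cgas, at most 6 other listed complement genes per comparison with the largest called change, and the 3 protein-coding genes with the highest Pearson r. Other settings were other pseudocounts, filters, scalings, weights and sets of samples, a replicate block, and a stricter fold threshold. The fit to the 6 samples compared with equal weights, and TMM scaling without the third WT LPS sample, were chosen after seeing the data. Shared sequence was searched with blastn at 95% identity over at least 75 bases. One gene of the complement list is counted but not reported here by name or in the plot of that list. Genes outside the table, such as C3, were not analysed here.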

Additional observations from a re-analysis of the deposited data

How the results depend on the processing

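Of 961 values of single genes under the alternatives, 869 kept their direction and their side of the threshold, 23 lost a call, 47 gained one and 22 changed sign, none of which was past the threshold. Of the 7 genes, 4 were called between untreated genotypes. This became 1 with equal weights, 6 with only the 6 samples compared under either weighting, and 0 with the added fold threshold. It ran from 3 to 6 when single samples were left out. After LPS the genotypes had 0 calls, but 2 with a pseudocount of 5, 2 with TMM, 1 with quantile scaling, 1 with scaling to protein-coding genes, 2 with equal weights, 4 with weights per sample and 4 with TMM without the third WT LPS sample. Leaving out single samples gave 0 to 3, with 3 without WT LPS replicate 3. The 2 calls of WT after LPS became 1 with a pseudocount of 0.1, 5 with protein-coding scaling, 1 with only the 6 samples compared, 1 with those and equal weights, and 1 with the fold threshold. Over all genes, protein-coding scaling gave 228 higher and 1485 lower of 8023 in WT after LPS, beside 231 and 832 of 11887 in the main fit. Leaving out single samples gave 0 to 2, with 0 without WT LPS replicate 1. The 6 calls of cGAS-/- after LPS became 2 with equal weights and 1 with the fold threshold. The interaction had 0 calls, but 1 with weights per sample, 4 with TMM without the third WT LPS sample, and 0 to 2 when single samples were left out, with 2, C1qb and C1qc, without WT LPS replicate 3. Calls over the 22 complement genes ran from 0 to 12 between untreated genotypes, 0 to 7 between genotypes after LPS, 0 to 14 for WT and 2 to 19 for cGAS-/- after LPS, and 0 to 6 in the interaction. The cause of these changes was not tested.

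Signs turned as follows, on the log2 scale. Between genotypes after LPS, C3ar1 was -0.082 with TMM and -0.32 with TMM without the third WT LPS sample, and leaving out single samples gave -0.26 to 0.83 for C3ar1 and -0.78 to 0.056 for Serping1. For WT after LPS, C1qa was 0.38 with TMM and 0.026 with weights per sample. With TMM without the third WT LPS sample C1qa was 0.55, C1qb 0.18, C1qc 0.18 and C3ar1 0.23, and leaving out single samples gave -0.64 to 0.11 for C1qa. For cGAS-/- after LPS, Serping1 was 0.024 with quantile scaling and -0.23 to 0.027 when single samples were left out. In the interaction C3ar1 was -0.22 with TMM, -0.036 with protein-coding scaling, -0.086 with weights per sample and -0.47 with TMM without the third WT LPS sample. Cd55 was -0.15 there with a pseudocount of 5. Leaving out single samples gave -0.89 to 0.12 for C1qb and -0.36 to 0.73 for C3ar1 in the interaction.

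Over all genes, calls between untreated genotypes were 389 higher and 909 lower, and 735 and 738 with quantile scaling. For WT after LPS they were 231 and 832, and 451 and 423 with TMM. Samples with the same replicate number did not deviate together (18 correlations between -0.03 and 0.04). The correlation that paired samples would show is unknown, so this check cannot exclude that the numbers pair them. With the replicate block, C1qb between untreated genotypes had an adjusted p of 0.0709, leaving 3 calls there, and no other call of the 7 genes changed. Over all genes the block gave 292 higher and 763 lower between untreated genotypes. With the filter at 5, Serping1 was not tested. The depth is unknown, and no counting error can be set beside the low values of Serping1 and Cd55.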
